A study of Mus musculus with 8 samples.

Results

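MicroRNAs (miRNAs) encoded in the Hox gene clusters were followed in mouse bone marrow LSK cells, sorted by flow cytometry as negative for lineage markers and positive for Sca1 and cKit, which hold haematopoietic stem cells and multipotent progenitors. All mature miRNAs of the deposited table named miR-196a, miR-196b, miR-10a or miR-10b were taken, whatever their values. This rule was set with earlier results of these data known. The rule gave 3 of the 190 miRNAs in the table: mmu-miR-196b-5p, mmu-miR-10a-5p and mmu-miR-10a-3p, written below without the mouse prefix. miR-196a-5p, miR-196b-3p and both strands of miR-10b are not analysed here. All 3 passed the filter on low counts, among 144 miRNAs tested.

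The comparison took 4 samples of db/db mice, which carry the mutant db allele of Lepr, the leptin receptor gene, on both chromosomes (strain B6.BKS(D)-Leprdb/J), a model of obesity with type 2 diabetes. These were set against 4 samples of heterozygous db/m mice (strain B6.BKS(D)-Leprdb/+). The db allele is carried by both genotypes and in the whole animal, so wild type cells were not part of the design. The labels give 6 months of diabetes for every sample, db/m included, and every title reads db/m, so the genotype and strain labels set the groups. Small RNA libraries were made with the QIAseq miRNA kit from RNA of the sorted cells. The labels do not say whether each library is a separate animal, and p-values therefore measure only the spread between these samples. Library totals ran from 13273 to 77834 counts, and 3 counts were worth between 40.3 and 229 CPM (counts per library size, with sizes adjusted by the TMM method).

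Hox genes encode transcription factors that set position along the body axis, and in blood several of them, Hoxa9 and Hoxb4 among them, are known for promoting self-renewal of stem and progenitor cells. miRNAs of the clusters are transcribed among these genes, and mature miRNAs lower the output of messenger RNAs that pair with their seed, the bases near the 5′ end. miR-196b is known in blood for its high level in immature cells and in leukaemias driven by MLL fusions. miR-10a lies beside Hoxb4 and is expressed in immature haematopoietic cells.

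The mature sequences are shown because members and their relatives differ by few bases. They are the RefSeq sequences of build GRCm38.p6, 5′ to 3′, with the seed (bases 2 to 8) in capitals.
miR-196b-5p: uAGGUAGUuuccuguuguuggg
miR-196a-5p: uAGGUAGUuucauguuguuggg
let-7a-5p: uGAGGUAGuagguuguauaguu
miR-10a-5p: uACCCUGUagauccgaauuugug
miR-10b-5p: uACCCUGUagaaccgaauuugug
miR-99a-5p: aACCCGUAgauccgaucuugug
miR-10a-3p: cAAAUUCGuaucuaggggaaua

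miR-196b-5p and miR-196a-5p share a seed and differ by 1 base, C12A (the base of miR-196b-5p first, positions counted from 1 at the 5′ end). miR-10a-5p and miR-10b-5p also share a seed and differ by 1 base, U12A. The handling of reads that match both copies is not described in the sources available, and a count for either member can include reads of its copy. Of the table's miRNAs, 163 matched a RefSeq sequence by name, and among these no other one had the seed of miR-196b-5p or of miR-10a-5p. The 7 seed letters of miR-196b-5p do occur in 8 of the 9 miRNAs with the let-7 seed, beginning at base 3 and so shifted by 1 base from their own seed. miR-99a-5p, a relative of miR-10 by sequence, matched miR-10a-5p at 4 of the 7 seed bases.

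The miR-196b hairpin lies on chromosome 6 at 52230081 to 52230165 of GRCm38, minus strand. In the GENCODE annotation it falls within exons of 2 noncoding Hoxa9 transcripts, 1 processed transcript and 1 with a retained intron, and ends 1032 bases from Hoxa10. The miR-10a hairpin lies on chromosome 11 at 96317165 to 96317274, plus strand. It overlaps no other annotated gene and lies 993 bases from Hoxb4, while Hoxb5 is 11044 bases away. It is shown with both mature arms in capitals, since both were counted.
Mir10a: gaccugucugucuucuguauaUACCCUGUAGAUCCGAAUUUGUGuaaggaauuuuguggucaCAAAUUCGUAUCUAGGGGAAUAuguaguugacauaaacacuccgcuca

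miR-196b-5p was higher in every db/db library than in any db/m library. Its level was 8643, 11232, 7916 and 8279 CPM in db/db replicates 1 to 4, against 6571, 4967, 5378 and 4559 CPM in db/m replicates 1 to 4. The groups did not overlap, with db/db replicate 2 the highest and db/m replicate 4 the lowest. These levels rest on 496, 578, 293 and 375 counts in the db/db libraries and on 248, 65, 400 and 238 counts in the db/m libraries.

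**Figure D1:**
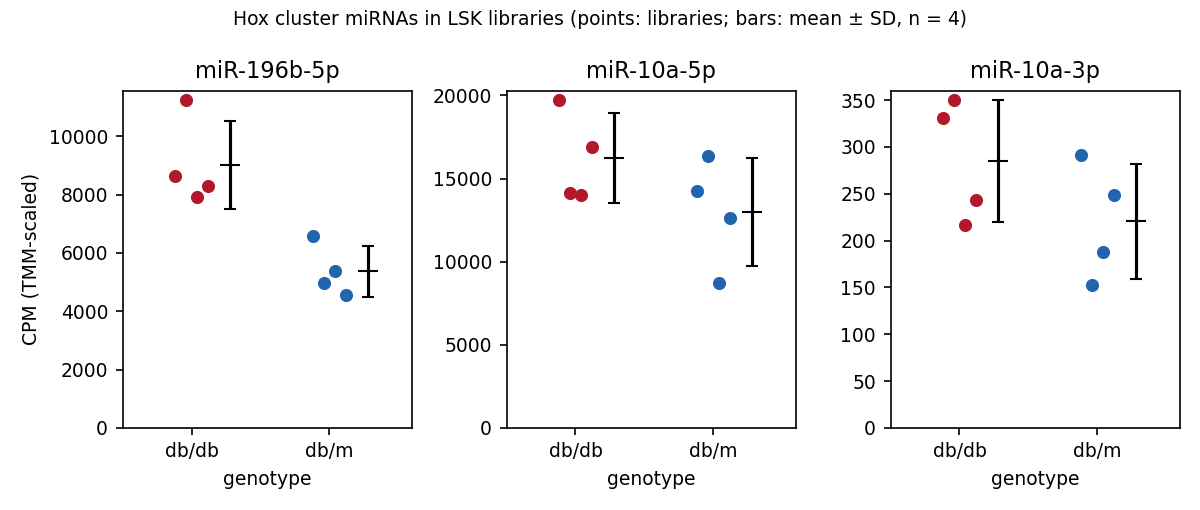
Level of each Hox cluster miRNA, in CPM on a linear axis from 0, in the 4 db/db and 4 db/m libraries (points), with mean ± SD. The db/db libraries lie above all db/m libraries for miR-196b-5p, and the genotypes overlap for both arms of miR-10a.

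The mean of miR-196b-5p was 9018 ± 1506 CPM in db/db and 5369 ± 868 CPM in db/m (SD, n = 4 each). The log2 fold change was 0.75 (SE 0.19), a 1.68-fold rise, and passed the quasi-likelihood test of edgeR after Benjamini-Hochberg adjustment over all 144 miRNAs (adjusted p = 0.0436). In the same test 7 miRNAs passed, 4.86% of those tested, of which 4 were higher (2.78%) and 3 lower (2.08%) in db/db. The genotypes did not overlap for 25 miRNAs (17.4%), 12 of them higher in db/db (8.33%). miR-196b-5p ranked 7 by p-value and 11 by log2 fold change. In the authors' deposited table its log2 fold change was 0.67 and its false discovery rate 0.0476, where 10 of 190 miRNAs (5.26%) were under 0.05.

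This call lay close to the threshold and was lost when single libraries were left out. The edgeR adjusted p was 0.110 without db/db replicate 1, 0.128 without db/db replicate 2, 0.0769 without db/m replicate 1, 0.0660 without db/m replicate 2 and 0.173 without db/m replicate 4, with log2 fold changes from 0.59 to 0.88. With no filter on low counts it was 0.0864.

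**Figure D2:**
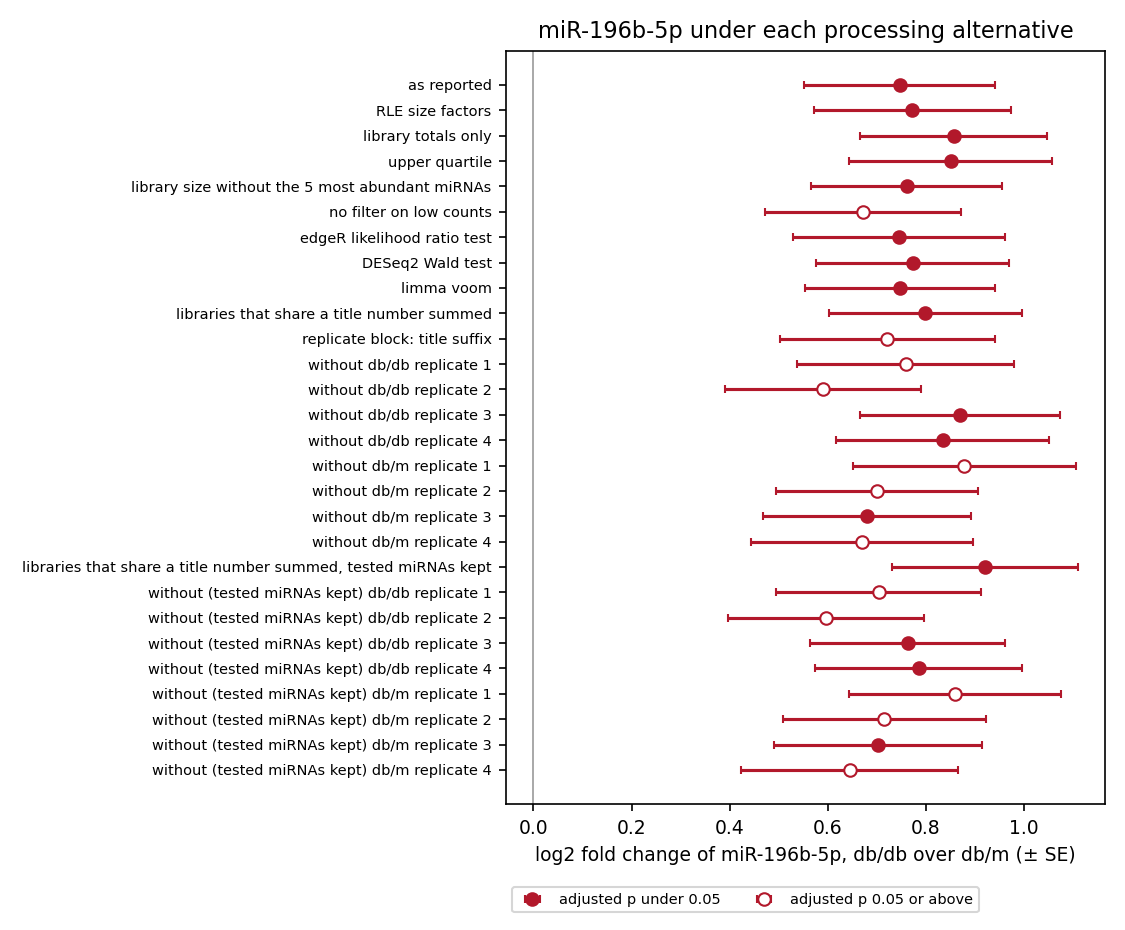
Log2 fold change of miR-196b-5p, db/db over db/m, with its SE (bars), as reported and under each alternative. Filled points had an adjusted p under 0.05. All points lie above 0, between 0.59 and 0.92, and open points mark the settings in which the call was lost.

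A share of all miRNA counts scales by the library total alone, without the TMM adjustment. By this measure miR-196b-5p held 0.915%, 1.15%, 0.811% and 0.836% in db/db replicates 1 to 4 and 0.612%, 0.490%, 0.514% and 0.436% in db/m replicates 1 to 4. The mean share was 0.929% ± 0.156 in db/db and 0.513% ± 0.0737 in db/m (SD, n = 4 each), higher in 4 of 4 db/db libraries. The exact two-sided permutation p was 0.0286, the lowest possible with 4 libraries per genotype. It became 0.0857 after Benjamini-Hochberg adjustment over the 3 members. With 0.0286 as the smallest possible p a single share could not pass among 3, so the adjusted value decides nothing. In sorted bulk cells a larger share of the cells that hold a miRNA and more of it per cell cannot be told apart.

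The libraries share title numbers within a genotype, no number occurs in both genotypes, and what the numbers mark is not stated. db/db replicates 1 and 2 share a number and averaged 9938 CPM of miR-196b-5p, and db/db replicates 3 and 4 averaged 8098 CPM. db/m replicates 1 to 3 share a number and averaged 5639 CPM, against 4559 CPM in the single library of the other number.

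miR-10a-5p was the more abundant member but did not pass the test. It measured 19743, 14147, 14021 and 16912 CPM in db/db replicates 1 to 4, and 14255, 16352, 8700 and 12643 CPM in db/m replicates 1 to 4. The genotypes overlapped, with db/db replicate 1 the highest and db/m replicate 3 the lowest. The mean was 16206 ± 2709 CPM in db/db and 12987 ± 3237 CPM in db/m (SD, n = 4 each), and the log2 fold change was 0.33 (SE 0.21, edgeR adjusted p = 0.388). Without db/m replicate 3 the log2 fold change was 0.10. With libraries of a shared title number summed and the same 144 miRNAs tested, an alternative chosen after the data were seen, it was 0.57 and passed (edgeR adjusted p = 0.0146). In that refit the median log2 fold change of all tested miRNAs also moved up, by 0.109. The miR-10a-5p share of counts was 1.67% ± 0.305 in db/db and 1.24% ± 0.324 in db/m (SD, n = 4 each). Its exact two-sided permutation p was 0.114 (adjusted p = 0.143).

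miR-10a-3p, the opposite strand of the same hairpin, had few counts. There were 19, 18, 8 and 11 counts in db/db replicates 1 to 4 and 11, 2, 14 and 13 counts in db/m replicates 1 to 4. The level was 285 ± 65.4 CPM in db/db and 220 ± 61.8 CPM in db/m (SD, n = 4 each), with a log2 fold change of 0.34 (SE 0.34, edgeR adjusted p = 0.631). The db/m replicate 2 value, 2 counts, is below the 3 counts taken as the floor. A change of this miRNA was not detected.

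The balance of the miR-10a arms was close in the genotypes. The 3p arm took 1.65%, 2.41%, 1.52% and 1.42% of miR-10a counts in db/db replicates 1 to 4 and 2.00%, 0.926%, 2.12% and 1.93% in db/m replicates 1 to 4. The mean was 1.75% ± 0.453 in db/db and 1.74% ± 0.551 in db/m (SD, n = 4 each). The exact (Clopper-Pearson) 95% interval in db/m replicate 2, from 0.112% to 3.30%, spans the share of every other library, and such intervals cover counting error only.

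**Figure D3:**
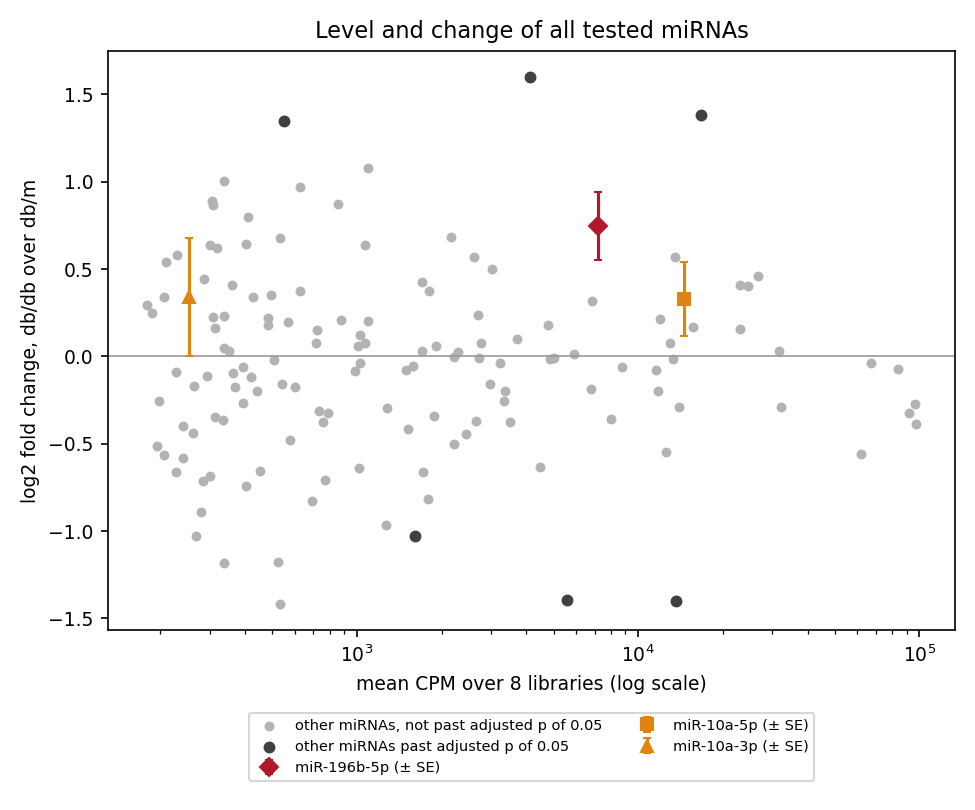
Mean level over the 8 libraries (CPM, log scale) against log2 fold change, db/db over db/m, for the 144 tested miRNAs (points), with the SE of the Hox cluster miRNAs (bars). miR-196b-5p stands at 0.75 among the miRNAs past adjusted p of 0.05, and both miR-10a arms stand near 0.33 with SEs that reach further down.

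By mean level over the 8 libraries miR-10a-5p ranked 15, miR-196b-5p ranked 27 and miR-10a-3p ranked 132 of 144. The neighbours of miR-196b-5p in level were miR-223-3p, miR-328-3p, miR-103-3p and let-7g-5p, with log2 fold changes of -0.06, -0.36, 0.32 and -0.18. The genotypes overlapped for each of these 4, and none passed edgeR's test (adjusted p from 0.333 to 0.932).

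Within-library ratios set miR-196b-5p against other miRNAs without any scaling. The log2 ratio of miR-196b-5p to miR-10a-5p was -1.19, -0.33, -0.82 and -1.03 in db/db replicates 1 to 4, and -1.12, -1.71, -0.69 and -1.47 in db/m replicates 1 to 4. The genotypes overlapped, and 1 of 4 db/db libraries lay above all db/m libraries. The mean difference, db/db minus db/m, was 0.40 (exact two-sided permutation p = 0.257, adjusted p = 0.257 over 7 ratios). This is the test of whether miR-196b-5p and miR-10a-5p changed by different amounts, and a difference was not detected.

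The ratio to miR-16-5p, an abundant miRNA known for restraining the cell cycle, was the only one of the 7 whose genotypes did not overlap. Its log2 value averaged -3.18 ± 0.35 in db/db and -4.00 ± 0.14 in db/m (SD, n = 4 each), a difference of 0.82 (exact two-sided permutation p = 0.0286, adjusted p = 0.150). Against miR-223-3p, a miRNA of the myeloid lineage, the difference was 0.84 (exact permutation p = 0.0857), and against miR-125a-5p, which is known to expand stem cells, it was 0.70 (exact permutation p = 0.0571). Against miR-126a-3p, known for holding stem cells in quiescence, it was -0.59 (exact permutation p = 0.114). Smaller positive differences were found against miR-10a-3p, 0.43 (exact permutation p = 0.0857), and miR-21a-5p, 0.33 (exact permutation p = 0.143). None of the 7 passed after adjustment, and with 0.0286 as the smallest possible p a single ratio could not pass among 7.

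**Figure D4:**
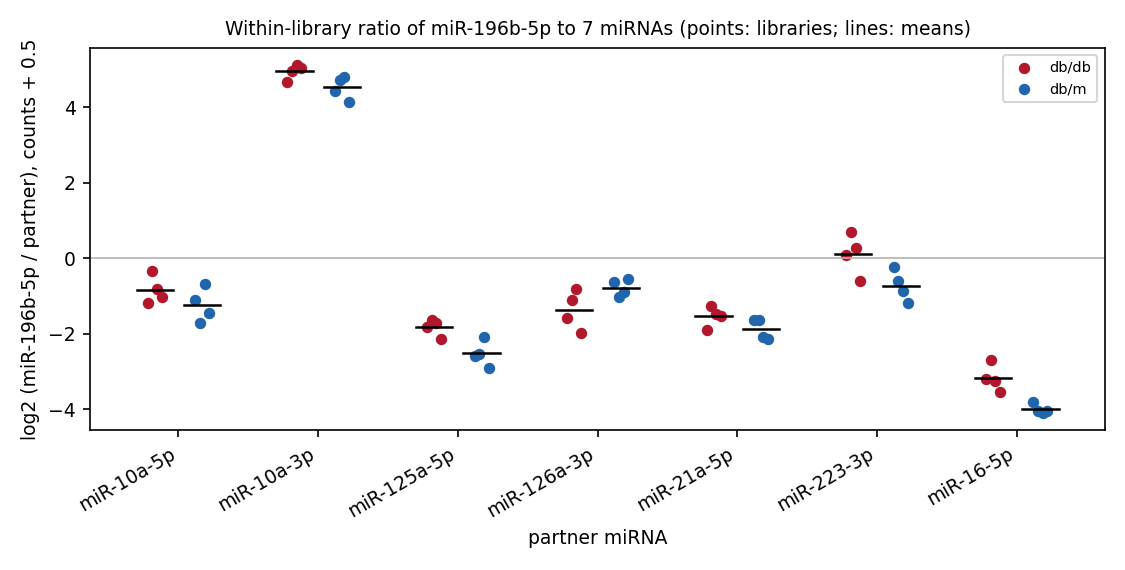
Log2 ratio of miR-196b-5p counts to those of 7 miRNAs within each library (points), with genotype means (lines). For miR-16-5p all 4 db/db libraries lie above the db/m libraries, and the genotypes overlap for the other 6.

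Among 18 miRNAs listed for a tie to Hox genes, by their place in a cluster, their sequence or a reported regulatory link, 11 were in the table and all 11 were tested. miR-196b-5p and miR-126a-3p rose and none fell, 2 of 11 against 4.86% called in either direction and 2.78% called higher over all tested miRNAs. All 3 members studied, miR-196b-5p, miR-10a-5p and miR-10a-3p, are themselves among the 11. The list was chosen with earlier results of these data known, so neither this count nor the median below is independent of them. Of the 11 log2 fold changes 8 were above 0. Their median was 0.33, against -0.03 over all 144 tested miRNAs, of which 45.8% were above 0. That median is the value of miR-10a-5p itself, so it adds no support from outside the members. The median of the 11 was 0.10 without db/m replicate 3 and 0.21 without db/db replicate 1.

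miR-126a-3p, reported to act on Hoxa9 messenger RNA, had 24199 ± 7669 CPM in db/db and 9312 ± 1727 CPM in db/m (SD, n = 4 each; log2 fold change 1.38, SE 0.25, edgeR adjusted p = 0.00532). The let-7 members reported to act on Hoxa9 had negative values that did not pass, -0.38 for let-7a-5p (edgeR adjusted p = 0.0637) and -0.32 for let-7b-5p (edgeR adjusted p = 0.153). let-7a-5p did pass by DESeq2 (adjusted p = 0.0312), by limma voom (0.0422) and with summed libraries (edgeR, 0.0319). It also passed edgeR's test without db/db replicate 2 (adjusted p = 0.0191), without db/m replicate 2 (0.0450) and without db/m replicate 3 (0.0255). let-7b-5p passed with summed libraries (edgeR adjusted p = 0.0309). With summed libraries and the same 144 miRNAs tested, neither passed (edgeR adjusted p = 0.122 for let-7a-5p and 0.120 for let-7b-5p). The let-7a-5p libraries did not overlap between the genotypes, as in 13 of 144 miRNAs lower in db/db (9.03%).

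The relatives of miR-10 by sequence did not pass either, with log2 fold changes of 0.64 (SE 0.36) for miR-99a-5p and 0.24 (SE 0.25) for miR-99b-5p, the last of which turned to -0.03 without db/m replicate 3. The miR-99a-5p value was 0.28 without db/db replicate 1 and 0.39 without db/m replicate 3. Of the miRNAs reported as targets of Hoxa9, miR-21a-5p had 0.41 (SE 0.17, edgeR adjusted p = 0.171) and miR-155-5p had 0.18 (SE 0.19). miR-181a-5p, reported to act on Hoxa11, had -0.08 (SE 0.32), and its sign turned under library totals (0.04) and upper quartile scaling (0.02).

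**Figure D5:**
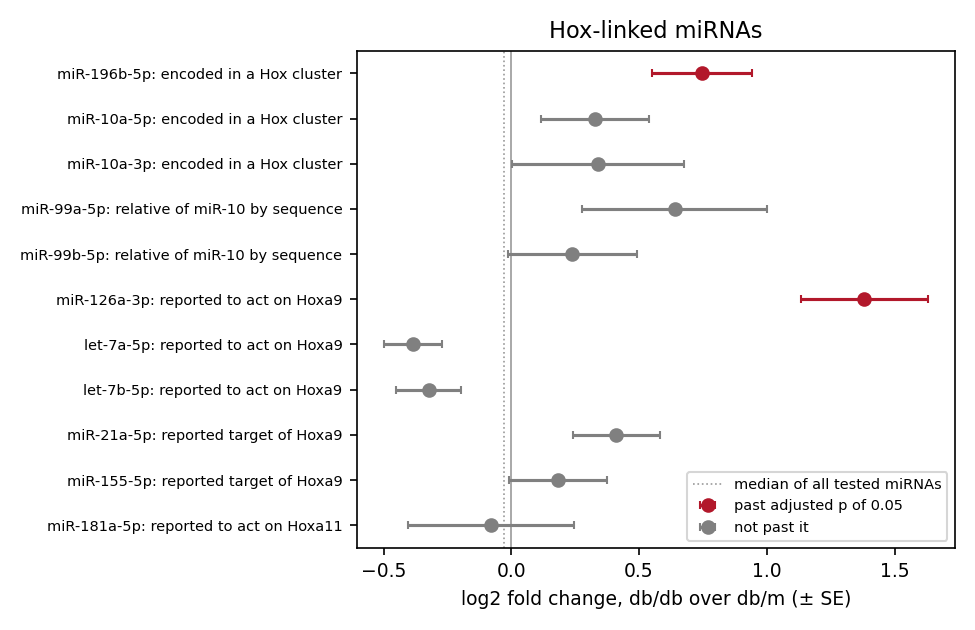
Log2 fold change, db/db over db/m, with SE (bars) for the 11 tested Hox-linked miRNAs, each with its listed tie. miR-196b-5p at 0.75 and miR-126a-3p at 1.38 passed adjusted p of 0.05, and the dotted line marks the median of all tested miRNAs at -0.03.

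Of 21 miRNAs listed for stem and progenitor cells 17 were tested. miR-196b-5p and both arms of miR-126a rose and none fell. This was 3 of 17, against 4.86% called in either direction and 2.78% called higher over all tested miRNAs. miR-196b-5p and miR-10a-5p are themselves members studied, and the arms of miR-126a come from the same hairpin. The list shares miR-196b-5p, miR-10a-5p, miR-99a-5p, miR-99b-5p, miR-126a-3p, miR-155-5p and miR-181a-5p with the Hox-linked list. The calls of miR-196b-5p and miR-126a-3p are therefore the same calls counted again. The list was also chosen with earlier results of these data known, so the count is not independent of them. Of the 17 log2 fold changes 12 were above 0 and 5 below, with a median of 0.22 against -0.03 over all tested miRNAs. That median was 0.06 without db/m replicate 3 and 0.35 without db/m replicate 1. The lowest was -1.42 for miR-22-3p, which had 283 ± 241 CPM in db/db and 783 ± 135 CPM in db/m (SD, n = 4 each). Its genotypes did not overlap, and it did not pass (edgeR adjusted p = 0.111). The most abundant of the list, miR-125a-5p, had a log2 fold change of 0.03.

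Markers of other cells were read beside these values. The 3 tested miRNAs listed as mature myeloid were miR-223-3p and both arms of miR-142a, and none passed. They summed to between 21049 and 28768 CPM in db/db and between 20478 and 30226 CPM in db/m. The largest part was miR-142a-3p, with means of 12855 CPM in db/db and 11018 CPM in db/m. miR-223-3p alone had 8603 ± 2834 CPM in db/db and 8939 ± 1411 CPM in db/m (SD, n = 4 each). Of 8 stromal and endothelial miRNAs 3 were tested, and both that passed were the arms of miR-126a, which stem cells also express. That list summed to between 17966 and 42236 CPM in db/db and between 8735 and 13301 CPM in db/m. Its part in the miR-196b-5p result was not tested. Lymphoid and erythroid lists had 2 and 1 tested members and the list of other tissues 1, and none of these passed. The lymphoid members went opposite ways, miR-181c-5p with a log2 fold change of 1.00 (edgeR adjusted p = 0.0910) and miR-150-5p with -0.63 (edgeR adjusted p = 0.183). miR-1a-3p of other tissues was in the table but not tested. It had 139, 194, 1135 and 839 CPM in db/db replicates 1 to 4, and 185, 153, 242 and 19.2 CPM in db/m replicates 1 to 4.

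The miRNAs whose profile over the 8 libraries was most like that of miR-196b-5p were miR-322-5p, miR-146b-5p, miR-26a-5p, miR-652-3p and miR-29a-3p. Likeness was the root mean square difference of log2 CPM profiles, each centred on its own mean, and it was 0.21, 0.25, 0.25, 0.27 and 0.28 for these 5, against a median of 0.58 over the tested miRNAs. The measure includes the genotype difference, so miRNAs higher in db/db come first. The profile of miR-196b-5p departed from its own mean by 0.42, which is what a flat profile would score. miR-10a-3p ranked 7 and miR-10a-5p ranked 26 by it. With genotype means also subtracted the nearest were miR-26b-5p, let-7c-5p and let-7a-5p, at 0.17, 0.17 and 0.18 against a median of 0.38, and miR-10a-5p ranked 61. A miRNA that varies little also scores low here, so these small values do not show that the profiles vary together.

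Sequence matches between the members and Hox messenger RNAs were counted in the reference only, as messenger RNA was not measured. The letters ACTACCT, the complement of the miR-196b-5p seed, occurred on the transcript strand in the longest annotated 3′ UTR of 9 of 39 Hox genes (23.1%) and of 1283 of 21022 genes (6.10%). Median UTR length was 966 bases in Hox genes and 961 bases in all genes. The letters ACAGGGT, the complement of the miR-10a-5p seed, occurred in 4 of 39 Hox genes (10.3%) and in 12.5% of all genes.

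Hoxb8, whose messenger RNA is known to be cleaved through a near-complete match to miR-196, was absent from these 9, and a search for matches along the whole miRNA was added after that was seen. Among Hox genes the best site of miR-196b-5p lay in Hoxb8 on chromosome 11 at 96284888 to 96284909, plus strand. There 20 of 22 bases paired, with 1 G:U pair at miRNA position 5 and 1 unpaired base at position 12. At position 12 miR-196a-5p differs, and it pairs at 21 bases. The Hoxa9 site, in the host gene of the hairpin, lies on chromosome 6 at 52223900 to 52223921, minus strand. Capitals mark paired letters, 5′ to 3′.
Hoxb8: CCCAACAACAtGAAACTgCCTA
Hoxa9: CaaAAggAaAGaAAACTACCTt
A match is a description of letters and not evidence of regulation in these cells.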

How the data were processed

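Per the file headers, the authors gave raw counts for each mature miRNA and library and log2 CPM values. Per the file headers they also deposited a log2 fold change, a false discovery rate, a p-value and a signed fold change, treated as a score. The submitters' processing notes name edgeR 3.41.9 and build mm10. For the aligner and the handling of molecular identifiers, nothing was given in the sources used here. Columns were joined to samples by the number and suffix in their names, and 0 columns were left without a sample. A likelihood ratio test on all 190 miRNAs gave the authors' values (largest difference in log2 fold change 8.7e-15).

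Genotypes were compared on the counts in R 4.3.3 with edgeR 4.0.16 (filterByExpr with minimum count 10 and total 15, TMM, glmQLFit robust, Benjamini-Hochberg, threshold 0.05). The fit was run beforehand on simulated data whose planted changes were all larger than that of miR-196b-5p. A change of its size was not simulated. The SE is the log2 fold change over the square root of F. Ratios had 0.5 added to each count. Alternatives covered scaling, filter, tool (DESeq2 1.42.0, limma 3.58.1), summed libraries, a title-suffix block and left-out libraries. Named miRNAs were all members, list members that passed, Hox-linked members by role, neighbours in level and the nearest profiles. The members, the lists and the partners of the ratios were chosen with earlier results of these data known. Sequences come from RefSeq and gene models from GENCODE M21.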

Additional observations from a re-analysis of the deposited data

Results flagged for a closer look

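Of 70 groups of 4 libraries examined, 4 held a library whose gap to the nearest other exceeded Dixon's 95% critical value relative to the range, which chance gives in about 1 of 20 groups. The log2 ratio of miR-196b-5p to miR-16-5p was -3.80 in db/m replicate 1 and between -4.10 and -4.05 in the other db/m libraries. The 3p share of miR-10a counts was 0.926% in db/m replicate 2, on 2 counts, and between 1.93% and 2.12% in the other db/m libraries. miR-652-3p, one of the nearest profiles, had 261 CPM in db/db replicate 1 and between 351 and 369 CPM in the other db/db libraries. miR-126a-3p had 6724 CPM in db/m replicate 4 and between 10084 and 10239 CPM in the other db/m libraries.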

How the results depend on the processing

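miR-196b-5p was higher in db/db under every alternative run and kept an edgeR, DESeq2 or limma adjusted p under 0.05 in 8 of 10 that used all libraries. It was lost with no filter (log2 fold change 0.67, adjusted p = 0.0864) and with the title suffix as a replicate block (0.72, adjusted p = 0.0632). Whether the suffixes pair libraries is not stated. Of 6 same-suffix pairs, 2 had a correlation of deviations over 0.1 (from -0.35 to 0.31). These values cannot decide it, because the pairs reuse libraries and were not set against pairs of unlike suffix. With a library left out and the filter run again miR-196b-5p passed in 3 of 8 refits, from 0.59 to 0.88. After those values were seen, the refits were repeated on the same 144 miRNAs, because dropping a library had also changed which miRNAs were tested. miR-196b-5p then passed in 3 of 8, from 0.60 to 0.86. The summed libraries (2 against 2), which gave it 0.80 when filtered again, gave 0.92 on the same 144.

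That choice mattered for miR-10a-5p: with summed libraries its log2 fold change was 0.44 (adjusted p = 0.108) when filtered again and 0.57 (adjusted p = 0.0146) on the same 144. The median of all tested miRNAs differed between these fits too, at -0.03 when filtered again and 0.08 on the same 144. The cause was not tested. miR-10a-5p passed in no other alternative, and miR-10a-3p in none.

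The 7 calls became 5 with no filter, 6 with upper quartile scaling, 12 by the likelihood ratio test, 16 by DESeq2, 12 by limma voom, 11 with the block and 15 with summed libraries (21 on the same 144). With a library left out they ran from 3 to 18 (3 to 16 on the same 144): 3 without db/db replicate 1, db/m replicate 1 or db/m replicate 4, and 18 without db/m replicate 3. The 4 higher calls became 2 with no filter, 8 by DESeq2 and 15 with summed libraries on the same 144, and 2 to 7 with a library left out in both versions. The 3 lower calls became 2 with upper quartile scaling, 7 by the likelihood ratio test, 8 by DESeq2, 8 by voom, 9 with summed libraries (6 on the same 144), 6 with the block, and 1 to 11 with a library left out (1 to 9 on the same 144). The 2 Hox-linked calls became 1 with no filter or the block, 4 with summed libraries in both versions, and 1 to 3 with a library left out in both. The 3 stem and progenitor calls became 5 by DESeq2, 7 with summed libraries on the same 144, and 2 to 5 with a library left out (2 to 4 on the same 144).

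let-7a-5p gained a call in 3 of 10 alternatives with all libraries and in 3 of 8 refits with a library left out. With a library left out, the Hox-linked median ran from 0.10 to 0.43 and the stem and progenitor median from 0.06 to 0.35.

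Some log2 fold changes near 0 changed sign. miR-181a-5p had 0.0355 with library totals, 0.021 with upper quartile, 0.23 with the block and -0.44 to 0.20 with a library left out. miR-223-3p had 0.0434 with library totals, 0.0039 with upper quartile and -0.31 to 0.11 with a library left out. miR-125a-5p had -0.0544 with no filter, -0.11 with the block and -0.17 to 0.17 with a library left out. miR-99b-5p had -0.0253 to 0.37 with a library left out. These ranges span both versions of the filter. Library totals moved the median of all tested miRNAs by 0.107.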
